A study of Mus musculus with 127 samples.

Results

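The comparison described here is RGFP109 against vehicle in mouse striatal neurons that carried a huntingtin fragment with 97 glutamines (97Q). Its members are the 26 neurons titled 97Q with RGFP109 and the 26 titled 97Q alone, 52 of the 127 cells of the series, chosen by their titles and not by any measured value. The neurons came from the striatum of newborn C57BL/6 mice (P0-P1) and grew on small islands of cortical astrocytes. A lentivirus gave them exon 1 of human HTT fused to GFP, with 97 glutamines in both groups. The treated group received RGFP109 at 100 nM, first on day 6 in vitro and again every 3 days, and the vehicle group received DMSO on those days. On day 15, after whole-cell recording, the content of each neuron was drawn into the patch pipette and turned into a full-length cDNA library (Patch-seq). The same drug comparison in neurons with 25 glutamines (25Q), with 29 vehicle and 23 RGFP109 neurons, serves as the reference for where the 97Q response differs. The promoter of the transgene and the numbers of animals and cultures are not given in the labels, and the human transgene is not among the genes of the count table, so the genotype could not be checked in the counts.

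Histone deacetylases remove acetyl groups from histone tails and other proteins, which usually lowers transcription of the genes where they sit. HDAC1 works in the Sin3, NuRD and CoREST complexes and HDAC3 in the NCoR/SMRT complex, and the labels describe RGFP109 as specific for HDAC1 and HDAC3. Huntington's disease is caused by expansion of the glutamine tract of huntingtin, and the GABA-releasing projection neurons of the striatum are its most vulnerable cells. Loss of acetylation, of striatal identity transcripts and of cholesterol synthesis transcripts have each been described in models of the disease. An inhibitor acts on enzyme activity, so transcript levels of the targets do not show whether the drug worked.

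The labels place each group in batches 1, 2 and 3, and counts of a group's cells within a batch were summed, so that a batch is 1 replicate (n = 3 per group). Vehicle sums held 8, 3 and 15 cells and RGFP109 sums held 8, 4 and 14 cells in batches 1, 2 and 3. The vehicle sums had 36721108, 8665881 and 66610899 counts, and the RGFP109 sums had 27246193, 12935528 and 76217208. A single neuron gave 1221741 to 8842811 counts under vehicle and 999700 to 8480860 under RGFP109. Levels of a sum are CPM, counts relative to 1000000 counts of the sum after scaling by TMM factors, and values by batch are differences of log2(CPM + 1), RGFP109 minus vehicle. A sum weights its cells by their counts, so a higher level in a sum can come from a few cells or from all of them, and medians over cells are given beside some of the sums. All 52 cells had counts of Gad1 and of Gad2, the genes for both glutamate decarboxylases of GABA synthesis. Of the 9 markers of glutamatergic neurons, 6 were at 0 in all RGFP109 cells and 3 in all vehicle cells.

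One library stood apart from the rest. Cell 9 of the RGFP109 group, in batch 2, gave 4460342 counts, 34.5% of the counts of its 4-cell sum. Its most abundant transcript was Spp1 (osteopontin) at 106470 CPM, against at most 121.9 CPM in the other 51 cells, followed by the macrophage elastase Mmp12 at 101852 CPM and the lysozyme Lyz2 at 60533 CPM. The 13 microglia markers summed to 13263 CPM in it, against at most 303 CPM elsewhere. Ctss alone gave 12217 CPM of that sum, Tyrobp gave 608 CPM and Csf1r gave 26.5 CPM. Cx3cr1, P2ry12, Tmem119 and C1qa among the markers were at 0, and their median in the other 51 cells was also 0. The pan-neuronal list summed to 1240 CPM, below the 2231 to 18906 CPM of the other 51 cells, and Gad1 stood at 32.7 CPM. The cell keeps its label here, and results that rest on it are given with and without it.

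**Figure D1:**
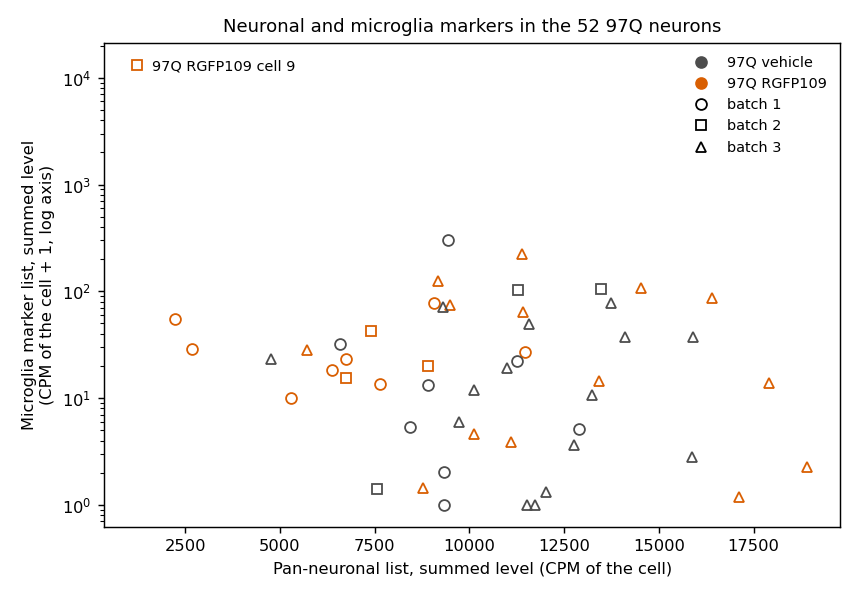
Each point is 1 of the 52 neurons, with the summed level of 21 pan-neuronal genes on the horizontal axis (CPM of the cell) and the summed level of 13 microglia markers on the vertical axis (CPM + 1, log axis), coloured by treatment and shaped by batch. Cell 9 of the RGFP109 group sits alone at 13263 CPM of microglia markers and 1240 CPM of pan-neuronal genes, while the other 51 cells reach at most 303 CPM of microglia markers. Of the 13263 CPM in cell 9, Ctss gave 12217 CPM.

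Across all genes, no transcript passed the threshold. Of 15091 genes tested, 0 had a Benjamini-Hochberg adjusted p under 0.05 by edgeR's quasi-likelihood test (0%), and 375 had an unadjusted p under 0.05 (2.48%), 210 of them higher and 165 lower with RGFP109. DESeq2 on the same sums called 110 genes, 79 higher and 31 lower, and 63 without cell 9, of which 56 were among the 110. The common biological coefficient of variation between sums was 0.928. Values below are therefore described as higher or lower without a claim of change, and each member of a list is read against all genes tested, whose median log2 fold change (log2FC) was -0.04. In 3.15% of all genes the 3 RGFP109 sums all lay above the 3 vehicle sums, and in 2.98% all lay below. The direction was the same in all 3 batches for 10.5% of genes as higher and 12.9% as lower. Without cell 9, an unadjusted p under 0.05 was reached by 1.28% of genes as higher and 1.19% as lower, sums did not overlap in 3.09% as higher and 3.23% as lower, and all 3 batches had 1 direction in 10.2% as higher and 13.3% as lower. Beside most edgeR log2FCs stands the standard error (SE), and beside some of them the unadjusted p. The adjusted p was 0.999 for every gene named.

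The drug's targets and their partners come first. Hdac3, the catalytic subunit of the NCoR/SMRT complex, stood at 180, 152 and 223 CPM in the vehicle sums of batches 1, 2 and 3 and at 189, 310 and 308 CPM with RGFP109. It was higher in each batch, but the groups overlapped, since the batch 1 RGFP109 sum lay below the batch 3 vehicle sum (edgeR log2FC 0.56, SE 0.285, unadjusted p = 0.0812). Hdac1, the class I deacetylase named with it as a target, stood at 15.8, 30.5 and 35.4 CPM under vehicle and 22.7, 12.0 and 21.0 CPM with RGFP109, with no common direction (log2FC -0.56, SE 0.845). Hdac2, the near relative of Hdac1, stood at 340, 316 and 31.8 CPM under vehicle and 363, 69.2 and 29.9 CPM with the drug. Its log2FC of -0.62 (SE 0.548) came from batch 2 and was 0.02 without that batch. Over the 17 histone deacetylase genes tested, 8 were higher and 9 lower, with a median log2FC of -0.10. Of the 17, 0 had an unadjusted p under 0.05 and 0 were without overlap between the groups. They are Hdac1 to Hdac11 and the sirtuin genes Sirt1, Sirt2, Sirt3, Sirt5, Sirt6 and Sirt7. The labels do not name sirtuins as targets of the drug, and the median of -0.10 is the value of Sirt6. Without cell 9, 7 of the 17 were higher and 10 lower, and the median was -0.32.

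The 28 tested genes of the HDAC1 and HDAC3 corepressor complexes had 18 higher and 10 lower and a median of 0.41, with medians of 0.03, 0.90 and -0.09 in batches 1, 2 and 3. Without cell 9 the list median was 0.31 and that of batch 2 was 0.46. Tbl1x, a WD-repeat subunit of the NCoR/SMRT complex, was higher in every batch (98.7, 54.5 and 67.2 CPM under vehicle, 142, 127 and 80.9 CPM with RGFP109; log2FC 0.71, SE 0.354, unadjusted p = 0.0733). Chd5, a neuronal NuRD remodeller, was lower in batch 1 and higher in the others (14.1, 2.82 and 3.49 CPM against 9.42, 27.1 and 22.7 CPM), while its median over cells went from 2.75 to 0.927 CPM. Among the 14 acetyltransferases, which add what the deacetylases remove, 5 were higher and 9 lower (median -0.35). The groups did not overlap for 2 on the higher side, Ncoa1 and Ncoa3 (3.15% of all genes). On the lower side they did not overlap for 2, Crebbp and Kat5 (2.98% of all genes). Ncoa1, a nuclear receptor coactivator, stood at 30.9, 27.3 and 19.2 CPM under vehicle and 70.6, 105 and 46.6 CPM with RGFP109. All 3 of its RGFP109 sums exceeded all 3 vehicle sums (log2FC 1.46, SE 0.571, unadjusted p = 0.0298). Crebbp, which encodes the CREB-binding protein, went the other way without overlap, with 95.1 to 116 CPM under vehicle and 55.6, 74.9 and 83.1 CPM with RGFP109 (edgeR log2FC -0.56, SE 0.316, unadjusted p = 0.107). Crebbp, Kat5 and Ncoa3 were picked out after their values were seen.

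Of the 18 bromodomain genes, whose products read acetylated histones, 12 were higher and 6 lower (median 0.20). Taf1, the largest subunit of TFIID, was higher in batches 1 and 2 and level in batch 3 (42.3, 89.0 and 127 CPM against 165, 217 and 128 CPM; log2FC 1.06, SE 0.416, unadjusted p = 0.0309). A list of 17 genes known to respond to HDAC inhibitors in other cells had 9 higher and 8 lower and a median of 0.01. Of these, 0 moved the same way in all 3 batches, against 10.5% of all genes as higher and 12.9% as lower. Without cell 9, 1 member was lower in all 3 batches (13.3% of all genes) and 1 was without overlap on the lower side (3.23% of all genes). Cdkn1a, which encodes the cell cycle inhibitor p21 and is the usual marker of such drugs, stood at 74.5, 15.6 and 92.1 CPM under vehicle and 67.2, 59.4 and 116 CPM with RGFP109. The groups overlapped (log2FC 0.57, SE 0.525, unadjusted p = 0.308), and the value was 0.24 without cell 9. Clu, a secreted chaperone also known as apolipoprotein J, was lower in batch 1 and higher in batches 2 and 3 (369, 228 and 266 CPM against 284, 718 and 660 CPM; log2FC 1.13, SE 0.537). Clu is on the astrocyte marker list too. Cell 22 of the RGFP109 group, which also had the highest share of the RGFP109 counts of Aqp4 and Aldh1l1, held 46.7% of its RGFP109 counts, and without the neurons rich in glial markers the log2FC of Clu was 0.23.

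The 8 higher genes of smallest p that moved one way in all 3 batches were Stxbp2, Tef, Kctd12, Ints3, Zfp292, Brinp2, Arhgef3 and Ets2. Tef (GRCm38, chromosome 15, 81802421 to 81826863, plus strand), a PAR bZIP transcription factor of circadian output, stood at 64.6, 38.1 and 15.9 CPM under vehicle and at 213, 114 and 52.6 CPM with RGFP109. Its RGFP109 level was higher in each batch, although the batch 3 RGFP109 sum lay below the batch 1 vehicle sum (log2FC 1.70, SE 0.399, unadjusted p = 0.00192). In single neurons the median of Tef was 12.9 CPM under vehicle and 73.4 CPM with RGFP109. Zfp292 (chromosome 4, 34803113 to 34882960, minus strand), a zinc finger transcription factor, stood at 64.8, 14.9 and 35.9 CPM under vehicle and 165, 220 and 94.2 CPM with RGFP109. Its groups did not overlap (log2FC 2.14, SE 0.525, unadjusted p = 0.00255), and counts were found in 22 of 26 vehicle and 26 of 26 RGFP109 neurons. Ints3, a subunit of the Integrator complex, was the steadiest under vehicle, at 36.4, 39.03 and 43.3 CPM, and stood at 85.6, 165 and 122.8 CPM with the drug (log2FC 1.68, SE 0.409, unadjusted p = 0.00229). Ets2, an ETS-family transcription factor, was higher in every batch but ran from 0.68 to 12.3 CPM under vehicle and from 3.12 to 134 CPM with RGFP109 (log2FC 2.99, SE 0.802).

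Stxbp2 (chromosome 8, 3630955 to 3643644, plus strand), a Munc18-family partner of syntaxins in vesicle fusion, had the smallest p of the 8. It stood at 52.9, 10.7 and 66.2 CPM under vehicle and at 105, 74.6 and 227 CPM with RGFP109. All RGFP109 sums lay above all vehicle sums (log2FC 1.90, SE 0.440, unadjusted p = 0.00174), and the median over cells was 61.1 CPM under vehicle and 116 CPM with the drug. Brinp2, a neuronal protein of the BMP/retinoic acid-inducible family, stood at 13.7, 4.06 and 18.3 CPM under vehicle and 89.8, 26.4 and 51.98 CPM with RGFP109, again without overlap (log2FC 2.27, SE 0.589). Arhgef3, an exchange factor that activates RhoA, stood at 12.7, 6.77 and 10.1 CPM against 29.1, 55.1 and 64.5 CPM (log2FC 2.36, SE 0.645). The groups of Arhgef3 did not overlap, but its median over cells was below 1 CPM in both groups, with counts in 13 of 26 vehicle and 18 of 26 RGFP109 neurons.

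Kctd12, an auxiliary subunit of the GABA-B receptor, depended on cell 9. It stood at 3.28, 45.2 and 13.4 CPM under vehicle and 20.5, 128 and 44.4 CPM with RGFP109 (log2FC 1.99, SE 0.480, unadjusted p = 0.00220). Cell 9 held 85.1% of its counts in the batch 2 sum, and without that cell the sum stood at 23.7 CPM, below vehicle, and the log2FC was 1.41 (unadjusted p = 0.0885). For the other 7 higher genes the log2FC without cell 9 lay within 0.12 of the value with it. DESeq2 called all 8 at a Benjamini-Hochberg adjusted p of 0.00435 to 0.0243, and without cell 9 all but Kctd12, which had an adjusted p of 0.505. The 8 were chosen by p on the same sums, so the DESeq2 calls are not independent of that choice. Tef, Kctd12 and Arhgef3 share exon sequence with other annotated genes. Whether reads were counted by strand is not stated, and some of these counts may come from a neighbour.

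**Figure D2:**
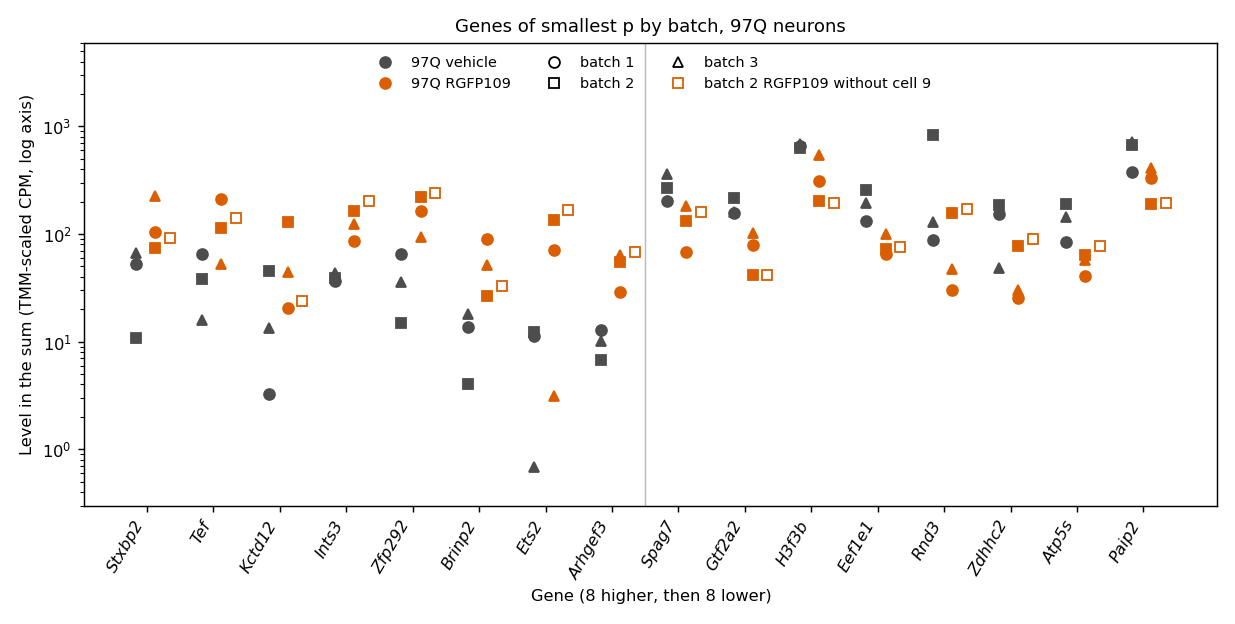
Level in each sum (TMM-scaled CPM, log axis) for the 8 higher and the 8 lower genes of smallest p that moved one way in all 3 batches, with grey for vehicle, orange for RGFP109, shapes for batches 1, 2 and 3, and open squares for the batch 2 RGFP109 sum without cell 9. The groups separate for Stxbp2, Ints3, Zfp292, Brinp2 and Arhgef3, and for Kctd12 the open square at 23.7 CPM lies far below the filled one at 128 CPM.

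The 8 lower genes were mostly more abundant and had narrower differences. H3f3b (chromosome 11, 116021912 to 116027962, minus strand) encodes histone H3.3, the variant laid down outside of DNA replication and the main H3 of mature neurons. It stood at 657, 631 and 687 CPM under vehicle and at 310, 201 and 548 CPM with RGFP109. The vehicle sums were nearly level and all RGFP109 sums lay below them (log2FC -1.03, SE 0.285, unadjusted p = 0.00528). All 52 neurons had counts of H3f3b, with a median of 690 CPM under vehicle and 365 CPM with the drug. Spag7 was lower in each batch (201, 265 and 359 CPM against 68.3, 131 and 182 CPM; log2FC -1.16, SE 0.304), and so was Eef1e1, a scaffold of the multi-tRNA synthetase complex (132, 259 and 192 CPM against 65.6, 72.9 and 99.6 CPM; log2FC -1.21, SE 0.339). Gtf2a2, the small subunit of the general transcription factor TFIIA, stood at 157, 216 and 161 CPM under vehicle and 79.4, 41.97 and 102 CPM with RGFP109 (log2FC -1.37, SE 0.376, unadjusted p = 0.00497). The groups overlapped for none of H3f3b, Spag7, Gtf2a2 and Eef1e1.

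Rnd3, an atypical small GTPase, was lower in every batch from very different starting levels (88.1, 831 and 129 CPM against 30.4, 155 and 47.7 CPM; log2FC -1.87, SE 0.543). Its median over cells was 105 CPM under vehicle and 14.8 CPM with RGFP109. Zdhhc2, an enzyme that palmitoylates the postsynaptic scaffold PSD-95, stood at 155, 186 and 48.6 CPM against 25.7, 78.1 and 30.2 CPM (log2FC -1.43, SE 0.424). Atp5s, a coupling factor of the mitochondrial ATP synthase, stood at 84.1, 189 and 146 CPM against 41, 63.7 and 57.6 CPM without overlap (log2FC -1.27, SE 0.383). Paip2, an inhibitor of the poly(A)-binding protein in translation, stood at 375, 666 and 710 CPM against 329, 191 and 414 CPM (log2FC -0.93, SE 0.289). None of the 8 lower genes passed DESeq2, whose Benjamini-Hochberg adjusted p-values for them ran from 0.0632 to 0.221, and leaving out cell 9 moved no log2FC of the 8 by more than 0.07.

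**Figure D3:**
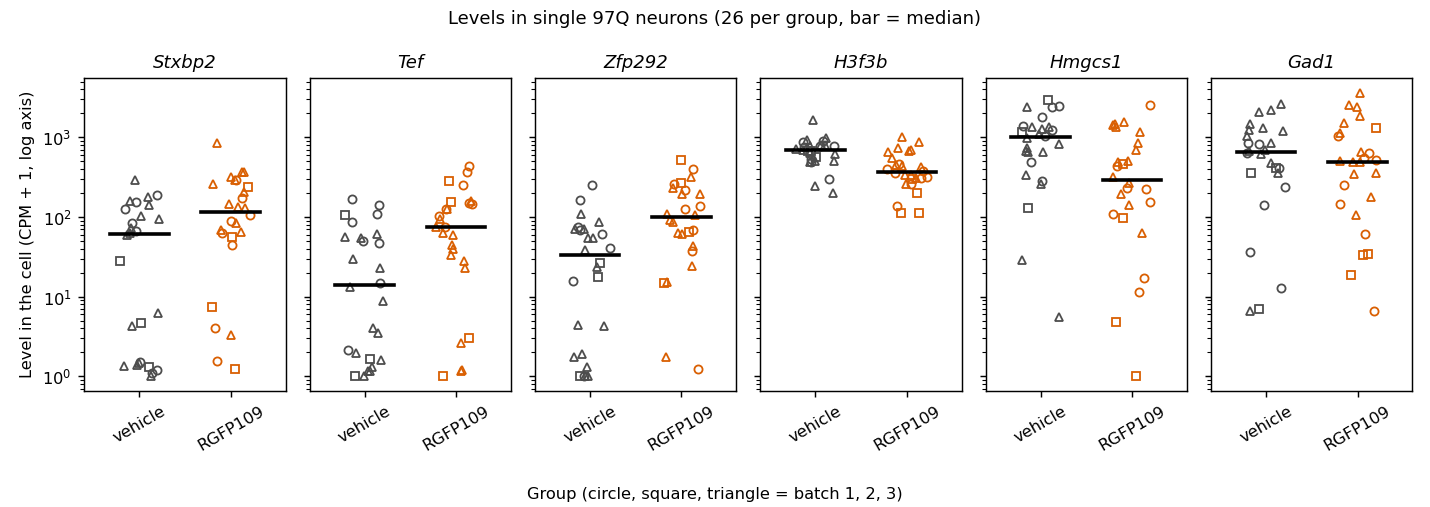
Levels in the 26 vehicle and 26 RGFP109 neurons (CPM + 1, log axis) for 6 genes, with the median of each group as a bar and batches as circles, squares and triangles. Medians are 61.1 and 116 CPM for Stxbp2, 12.9 and 73.4 for Tef, 32.0 and 98.3 for Zfp292, 690 and 365 for H3f3b, 1021 and 291 for Hmgcs1 and 650 and 495 for Gad1 under vehicle and RGFP109, and cells of both groups overlap in each panel.

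Among gene lists, cholesterol synthesis, histones, chaperones, ribosomal proteins and oxidative phosphorylation were among those with medians below that of all genes. The lowest medians belonged to small marker lists of other cells or states, at -2.04 for 7 proliferation genes, -1.67 for 3 endothelial and mural genes and -1.004 for 7 oligodendrocyte lineage genes. Striatal, postsynaptic and neurotrophin genes were among the lists with medians above that of all genes. Over all genes, 52% were lower in the fit.

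**Figure D4:**
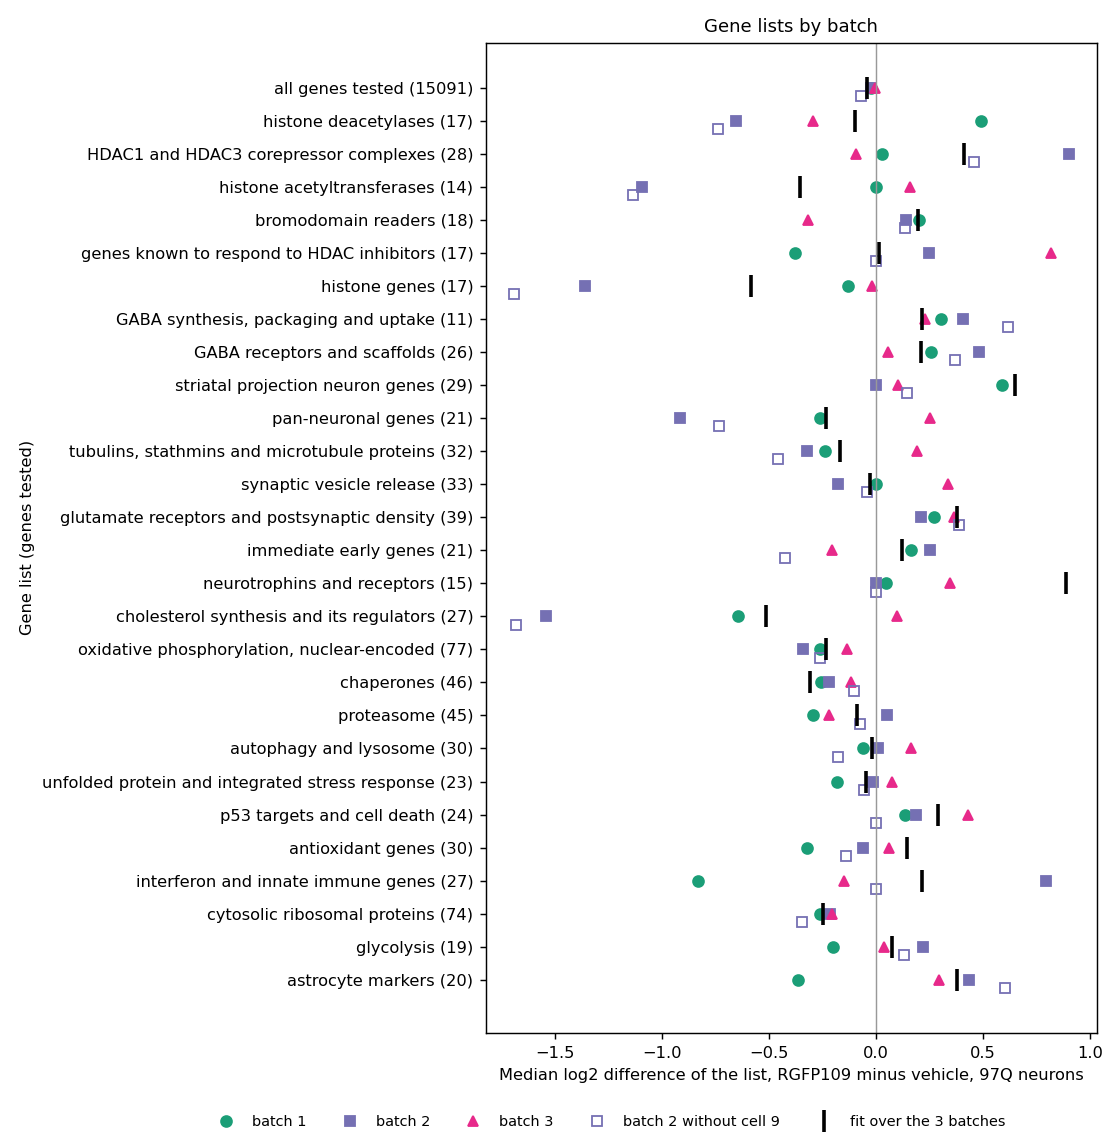
Median log2 difference of each list, RGFP109 minus vehicle, in batch 1 (circles), batch 2 (filled squares), batch 3 (triangles) and batch 2 without cell 9 (open squares), with a bar for the median log2FC of the fit over the 3 batches and the number of genes tested in brackets. Histone and cholesterol genes are far to the left in batch 2 (-1.36 and -1.54) and near 0 in batch 3, whereas genes of oxidative phosphorylation, chaperones and cytosolic ribosomal proteins lie a little below 0 in every batch.

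Cholesterol is made in neurons from acetyl-CoA along the mevalonate pathway, under the transcription factor SREBP-2, encoded by Srebf2. SREBP-2 binds sterol regulatory elements in promoters of the pathway's genes, usually beside NF-Y and Sp1 sites. Of the 27 genes of synthesis and its regulators, 22 were lower and 5 higher with RGFP109, with a median log2FC of -0.51. In 10 of the 27 the direction was lower in all 3 batches (12.9% of all genes). In 8 the groups did not overlap on the lower side (2.98% of all genes), but 0 of the 27 had an unadjusted p under 0.05. The medians by batch were -0.65, -1.54 and 0.10, so batch 3, which holds the most cells, showed no lower median. Summed over the list, vehicle stood at 6008, 6239 and 4804 CPM and RGFP109 at 3811, 2580 and 4847 CPM in batches 1, 2 and 3. Over single neurons, the summed list had a median of 4887 CPM under vehicle and 2641 CPM with the drug, with 7834 against 1693 CPM in batch 1 and 4466 against 3734 CPM in batch 3. Without cell 9, 21 genes were lower, 9 of them in all 3 batches (13.3% of all genes) and 8 without overlap (3.23% of all genes). By edgeR, 1 of the 27 then had an unadjusted p under 0.05. The list median was then -0.47 and that of batch 2 was -1.68.

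Along the pathway, Hmgcs1 (chromosome 13, 119690379 to 119708260, plus strand), the cytosolic HMG-CoA synthase at its entry, stood at 1071, 1365 and 830 CPM under vehicle and 525, 173 and 787 CPM with RGFP109. The groups did not overlap, with the batch 3 sums almost level (log2FC -1.13, SE 0.508, unadjusted p = 0.0529). Its median over cells was 1021 CPM under vehicle and 291 CPM with RGFP109. Acat2, the acetyl-CoA acetyltransferase of the step before, stood at 111, 233 and 107 CPM against 86.1, 39.3 and 81.5 CPM. Sqle, the squalene epoxidase, stood at 592, 540 and 426 CPM against 304, 72.6 and 411 CPM, and the mevalonate kinase gene Mvk at 98.2, 207 and 63.1 CPM against 34.1, 31.1 and 55 CPM. Idi1, Fdft1, Nsdhl and Stard4 made up the rest of the 8 genes without overlap, and all but Hmgcs1 of the 8 were picked out after their values were seen. Without cell 9 the batch 2 RGFP109 level was 212 CPM for Hmgcs1 and 0 for Nsdhl and Stard4.

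The regulators did not all share this direction. Srebf2 (chromosome 15, 82147181 to 82205379, plus strand) stood at 185, 150 and 153 CPM under vehicle and 60.8, 24.1 and 162 CPM with RGFP109. It was lower in batches 1 and 2 and slightly higher in batch 3 (log2FC -1.20, SE 0.541, unadjusted p = 0.0532). Scap, the escort protein that carries SREBPs to the Golgi, had a log2FC of 0.58 (SE 0.640), with medians over cells of 35.9 CPM under vehicle and 31.03 CPM with the drug. Insig2, which holds SCAP back in the endoplasmic reticulum, had 120, 181 and 201 CPM under vehicle and 210, 612 and 176 CPM with RGFP109 (log2FC 0.87, SE 0.401, unadjusted p = 0.0580), the highest value of the list. Scap and Insig2 were also picked out after their values were seen.

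In 25Q neurons 23 of the same 27 genes were higher with RGFP109, with a median log2FC of 0.56. The interaction, which is the drug effect in 97Q minus that in 25Q in the same edgeR fit, had a median of -1.06 over the list. Of the 27 genes, 3 had an unadjusted interaction p under 0.05, against 2.60% of all genes, namely Srebf2 (-2.01, SE 0.742, unadjusted p = 0.0234), Hmgcs1 (-1.76, SE 0.707, unadjusted p = 0.0331) and Dhcr7 (-1.06, unadjusted p = 0.0431). None passed the Benjamini-Hochberg adjustment over all genes by edgeR (adjusted p = 0.998). Without cell 9 the values were -1.97 for Srebf2, -1.73 for Hmgcs1 and -0.98 for Dhcr7, the last with an unadjusted p of 0.0635. Under vehicle, 97Q against 25Q gave a list median of 0.62, with Srebf2 at 1.31 and Hmgcs1 at 1.05. That comparison uses the same 97Q vehicle sums as the drug comparison, so opposite signs in the 2 are partly built in, and no relation between them is read here.

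**Figure D5:**
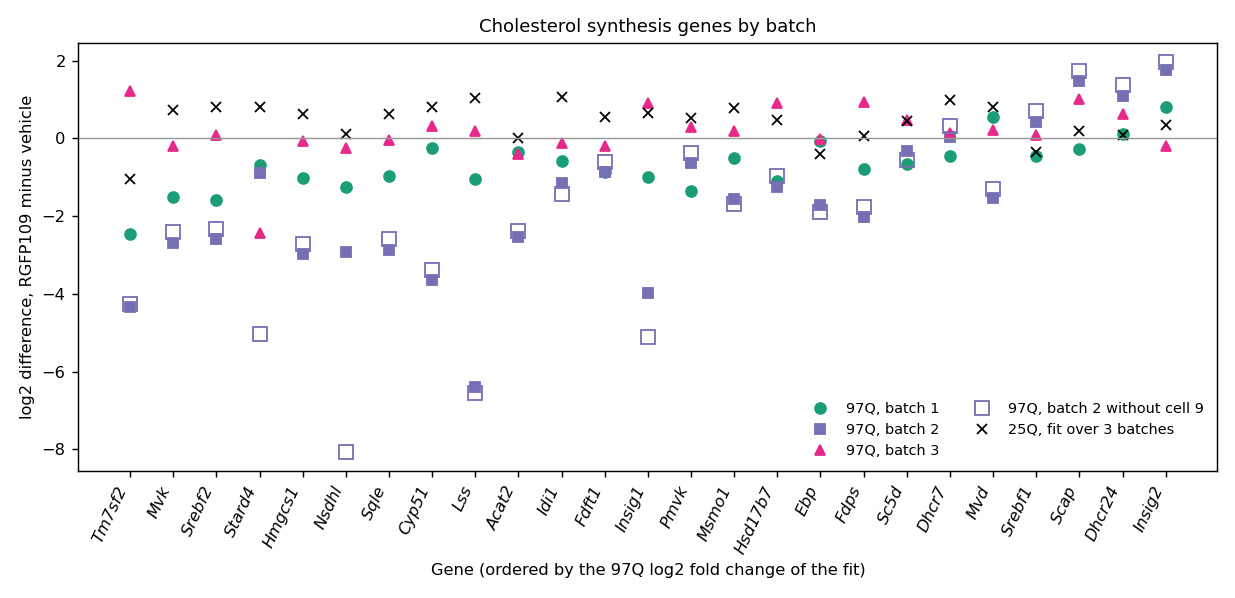
Log2 difference, RGFP109 minus vehicle, for 25 of the 27 cholesterol synthesis genes and regulators in batch 1 (circles), batch 2 (filled squares; open squares without cell 9) and batch 3 (triangles) of 97Q neurons, with crosses for the log2FC of the fit in 25Q neurons. Batch 2 reaches furthest down in most genes, batch 3 stays near 0 for Hmgcs1, Sqle and Srebf2, and 22 of the 25 crosses lie above 0.

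Because these genes share a known regulator, the 250 bases before the transcription start were searched on both strands for CACCCCAC, the core of a sterol regulatory element, for the NF-Y box CCAAT and for the GC box GGGCGG of Sp1. RefSeq promoters of GRCm38.p6 were found for 20 of the 27 genes. The sterol core was in 2 of the 20 (10%, against 3.32% of the 10098 tested genes with an entry), namely Acat2 and Hmgcs1. The CCAAT box was in 18 (90%, against 40.7%) and the GC box in 19 (95%, against 63.8%). The list was chosen for its function, so these shares describe known promoters and are not a result of the drug. The promoters of both genes with the sterol core and of Srebf2 are shown 5′ to 3′ on the strand of the gene, with every match to any of the 3 motifs, on either strand, in capitals. No matches overlapped. The window is chr17:12960726-12960975 on the minus strand for Acat2, chr13:119690101-119690350 on the plus strand for Hmgcs1 and chr15:82147019-82147268 on the plus strand for Srebf2. Windows were set by RefSeq starts, which can differ from the GENCODE positions given for the genes. For Srebf2 the end of the window lies inside the GENCODE gene.
Acat2: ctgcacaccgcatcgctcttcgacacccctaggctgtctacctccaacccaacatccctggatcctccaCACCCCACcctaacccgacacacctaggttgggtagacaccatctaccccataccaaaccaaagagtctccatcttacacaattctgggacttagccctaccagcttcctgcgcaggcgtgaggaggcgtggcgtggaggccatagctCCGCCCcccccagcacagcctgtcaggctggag
Hmgcs1: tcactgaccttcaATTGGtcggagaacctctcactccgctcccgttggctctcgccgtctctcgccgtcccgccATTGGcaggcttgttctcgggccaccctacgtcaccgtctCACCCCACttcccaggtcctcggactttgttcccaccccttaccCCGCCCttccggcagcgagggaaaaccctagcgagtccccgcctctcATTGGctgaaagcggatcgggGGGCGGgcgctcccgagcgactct
Srebf2: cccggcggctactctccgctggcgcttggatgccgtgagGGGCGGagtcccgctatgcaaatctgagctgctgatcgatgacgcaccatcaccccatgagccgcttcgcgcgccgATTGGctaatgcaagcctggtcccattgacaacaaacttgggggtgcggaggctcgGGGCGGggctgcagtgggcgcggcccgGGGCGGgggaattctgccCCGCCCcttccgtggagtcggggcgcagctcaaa

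In Hmgcs1 the sterol core begins 136 bases before the start and stands among 3 CCAAT and 2 GC boxes, in Acat2 it begins 181 bases before the start, and the Srebf2 window has 1 CCAAT box and 4 GC boxes. A match is a run of letters, and binding at these sites was not measured.

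Histone genes were mostly lower as well. Of 17 tested, 13 were lower and 4 higher (median log2FC -0.59), and 6 were lower in all 3 batches (12.9% of all genes were). The medians by batch were -0.13, -1.36 and -0.02, and -1.69 in batch 2 without cell 9. In 2 of the 17 histone genes the groups did not overlap on the lower side (2.98% of all genes). These were H3f3b and the linker histone gene Hist1h1e, the latter at 5.08 CPM or less in every sum. H3f3a, the second gene for H3.3, stood at 87.8, 47.3 and 112 CPM under vehicle and 81.9, 23.9 and 91.1 CPM with RGFP109, lower in each batch with overlap (log2FC -0.45, SE 0.371). Hist1h1c, a linker histone gene whose transcript was the exception without overlap on the higher side, stood at 11.5, 4.51 and 7.61 CPM against 19.9, 32.1 and 15.6 CPM (edgeR log2FC 1.59, SE 0.881, unadjusted p = 0.103). Hist1h1e and Hist1h1c were picked out after their values were seen. Most replication-dependent histone transcripts lack a poly(A) tail, so a cDNA primed on poly(A) reads few of them, and the summed list is carried by variants such as H3f3b. In 25Q neurons H3f3b had a drug log2FC of 0.26 (SE 0.281), and the interaction was -1.29 (unadjusted p = 0.00989, Benjamini-Hochberg adjusted p = 0.998 by edgeR).

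The study's title names inhibitory GABA transmission. Gad1 stood at 274, 239 and 1074 CPM under vehicle and 338, 356 and 1085 CPM with RGFP109, and was higher in each batch by less than the spread between batches (log2FC 0.30, SE 0.238, unadjusted p = 0.243). Its median over single neurons went the other way, from 650 to 495 CPM. Without cell 10 of the RGFP109 group the log2FC of Gad1 was -0.35. Gad2 stood at 470, 412 and 579 CPM against 561, 344 and 703 CPM (log2FC 0.13, SE 0.234, unadjusted p = 0.592), and by means over cells in limma its value was -0.55. No difference in either gene was detectable with 3 batches. Under vehicle the same fit gave 97Q against 25Q log2FCs of -1.83 for Gad1 and -1.43 for Gad2, a comparison that shares the 97Q vehicle sums.

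Of the 11 genes of GABA synthesis, packaging and uptake, 9 were higher and 2 lower, with a median of 0.21. In 4 of the 11 the direction was higher in all 3 batches (10.5% of all genes). Abat, the transaminase that breaks down GABA, stood at 175, 97.2 and 304 CPM under vehicle and 264, 148 and 321 CPM with RGFP109 (log2FC 0.44, SE 0.240, unadjusted p = 0.0968). Its median over single neurons went the other way, from 231 to 212 CPM. The 26 GABA receptor and scaffold genes had 19 higher and 7 lower (median 0.21). In 1 of the 26 the groups did not overlap on the higher side (3.15% of all genes) and in 2 on the lower side (2.98% of all genes). The subunit genes Gabra4 and Gabra5 differed in direction. Gabra4, a receptor subunit of striatal projection neurons, had 101, 90.0 and 135 CPM under vehicle and 237, 196 and 237 CPM with RGFP109 (log2FC 1.09, SE 0.632). Gabra5, an extrasynaptic alpha subunit, had 138, 190 and 63.6 CPM against 47.1, 1.61 and 61.4 CPM (log2FC -1.89, SE 1.03). For both subunits the groups did not overlap, and both share exon sequence with other annotated genes. Neither had an unadjusted p under 0.05 by edgeR, which 1 of the 26 genes, Kctd12, reached. Gabra4 was picked out after its values were seen.

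Of 29 genes that mark striatal projection neurons, 18 were higher, and their median log2FC was 0.65, with medians of 0.59, 0 and 0.10 by batch. The medians by batch are on the log2(CPM + 1) scale, and that of the fit lies above all 3. Pde1b, a calcium-dependent phosphodiesterase enriched in the striatum, stood at 17.4, 12.5 and 13.3 CPM under vehicle and 78.9, 48.5 and 33.9 CPM with RGFP109. Its groups did not overlap (log2FC 1.86, SE 0.628, unadjusted p = 0.0151). Kcnip2, a potassium channel partner, stood at 4.31, 4.29 and 22.4 CPM against 46.5, 36.2 and 43.4 CPM (log2FC 2.18, SE 0.846, unadjusted p = 0.0291). Drd2, the dopamine receptor of the indirect pathway, stood at 4.56, 0 and 2.78 CPM against 9.79, 33.2 and 6.87 CPM (log2FC 4.11, SE 2.58). Kcnip2 and Drd2 were picked out after their values were seen. With Pde1b they are the 3 of 29 members without overlap on the higher side (3.15% of all genes).

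Other identity genes did not follow. Ppp1r1b, which encodes DARPP-32, stood at 103, 303 and 8.06 CPM under vehicle and 318, 48.4 and 8.07 CPM with RGFP109, higher in batch 1, lower in batch 2 and level in batch 3 (log2FC -0.17, SE 1.63). Ebf1, a transcription factor of direct-pathway neurons, was lower without overlap (3.33, 32.0 and 4.54 CPM against 1.08, 0.378 and 0.0771 CPM; log2FC -4.59, SE 1.66), with counts in 8 of 26 neurons in each group. In 25Q neurons 6 of the 29 striatal genes were higher with RGFP109 and the median was -1.18. The interaction had a median of 1.99 over the list, against -0.04 over all genes. By edgeR, 3 of 29 members had an unadjusted interaction p under 0.05, against 2.60% of all genes. For Pde1b the interaction was 2.80 (SE 0.895, unadjusted p = 0.0115, Benjamini-Hochberg adjusted p = 0.998 by edgeR). The 97Q against 25Q vehicle comparison, which shares sums, had a list median of -1.52. Summed striatal genes ran from 651 to 4298 CPM over vehicle neurons and from 499 to 6596 CPM over RGFP109 neurons (from 635 CPM without cell 9). The ranges overlapped, and RGFP109 neurons reached higher. Medians over cells were 1756 against 3276 CPM in batch 1 and 1392 against 1281 CPM in batch 3. In batch 2 they were 3731 against 2551 CPM, or 3721 CPM with RGFP109 without cell 9.

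At the excitatory synapse, 24 of 39 glutamate receptor and postsynaptic density genes were higher, with a median of 0.38 that was 0.27, 0.21 and 0.36 by batch. In 13 of the 39 the direction was higher in all 3 batches (10.5% of all genes), and in 2 the groups did not overlap on the higher side (3.15% of all genes). Camk2a, the postsynaptic calcium-dependent kinase, stood at 11.6, 10.5 and 37.8 CPM under vehicle and 28.3, 42.1 and 60.5 CPM with RGFP109, higher in each batch with overlap (log2FC 1.34, SE 0.477, unadjusted p = 0.0189). Homer2, a scaffold of metabotropic glutamate receptors, stood at 2.62, 22.3 and 8.68 CPM against 40.6, 29.3 and 17.7 CPM (log2FC 2.01, SE 0.897). Synaptic vesicle genes had 16 higher and 17 lower (median -0.03), and 18 higher and 15 lower without cell 9 (median 0.03). Syp, the vesicle protein synaptophysin, was higher in every batch (655, 600 and 567 CPM against 949, 628 and 1064 CPM; log2FC 0.50, SE 0.266, unadjusted p = 0.0930), but by means over cells in limma its value was -0.37.

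Pan-neuronal and cytoskeletal genes differed by batch. Of 21 pan-neuronal genes, 15 were lower and 6 higher (median -0.24), with medians of -0.26, -0.91 and 0.25 in batches 1, 2 and 3. Tubb3, the neuronal beta-tubulin, stood at 479, 547 and 504 CPM under vehicle and 277, 48.2 and 600 CPM with RGFP109. Stmn3, a neuronal stathmin that binds tubulin, stood at 1118, 1161 and 1268 CPM against 665, 217 and 1452 CPM (log2FC -1.08, SE 0.454, unadjusted p = 0.0401). In both, vehicle sums were level while RGFP109 sums were low in batches 1 and 2 and high in batch 3. The pan-neuronal list summed over single neurons to a median of 9321 CPM under vehicle and 6561 CPM with RGFP109 in batch 1, to 11282 and 7079 CPM in batch 2 (7404 CPM without cell 9), and to 11733 and 11394 CPM in batch 3. The medians of the cholesterol and histone lists were likewise lowest in batch 2 and close to 0 in batch 3, and the part of the neuronal share in them was not tested. Of 32 tubulin, stathmin and microtubule genes, 19 were lower (median -0.17), with medians of -0.24, -0.32 and 0.19 by batch.

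Nuclear-encoded genes of oxidative phosphorylation, ribosomal protein genes and chaperones had medians below that of all genes in each batch, and glycolysis genes did not. Of 77 nuclear-encoded genes of oxidative phosphorylation, 60 were lower and 17 higher (median -0.23), with medians of -0.26, -0.34 and -0.13 by batch, and 24 were lower in all 3 batches (12.9% of all genes were). In 3 of the 77 the groups did not overlap on the lower side, a share near the 2.98% of all genes. These were Atp5s, Ndufs1, a core subunit of complex I (342, 512 and 578 CPM under vehicle, 268, 229 and 291 CPM with RGFP109), and Cycs, which encodes cytochrome c. Ndufs1 and Cycs were picked out after their values were seen. Ndufs3, another core subunit of complex I, overlapped, at 118, 96.8 and 108 CPM under vehicle and 68.3, 16.5 and 121 CPM with RGFP109 (log2FC -1.09, SE 0.490). The 7 tested genes of the mitochondrial genome were all higher in the fit (median 0.26), with medians of 0.19, 0.62 and -0.16 by batch. Without cell 9, 5 of the 7 were higher and the median was 0.08. Of 19 glycolysis genes 11 were higher (median 0.07), with medians of -0.20, 0.22 and 0.04 by batch.

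Cytosolic ribosomal protein genes had 51 of 74 lower (median -0.25, and -0.26, -0.21 and -0.20 by batch), with 19 lower in all 3 batches (12.9% of all genes). Rpl4, of the large subunit, stood at 300, 496 and 447 CPM under vehicle and 152, 371 and 312 CPM with RGFP109, lower in each batch with overlap (log2FC -0.64, SE 0.263, unadjusted p = 0.0371). Chaperone genes had 33 of 46 lower (median -0.31) and 16 lower in all 3 batches (12.9% of all genes). Tcp1, a subunit of the CCT chaperonin, stood at 497, 508 and 717 CPM against 370, 220 and 455 CPM without overlap (log2FC -0.77, SE 0.265, unadjusted p = 0.0166). Hsp90ab1, the constitutive HSP90, stood at 1829, 2768 and 3376 CPM against 1479, 2042 and 2445 CPM, lower in each batch (log2FC -0.38, SE 0.181). Without cell 9 the medians were -0.30 for ribosomal proteins, -0.27 for chaperones and -0.21 for oxidative phosphorylation.

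The proteasome list had 27 of 45 lower and a median of -0.09. Without cell 9, 31 of 45 were lower and the median was -0.18, against -0.08 for all genes. Psmg2, an assembly chaperone of the proteasome, was lower in every batch (58.4, 56.9 and 97.0 CPM against 29.0, 16.5 and 61.7 CPM; log2FC -1.10, SE 0.393, unadjusted p = 0.0196). Of 30 autophagy and lysosome genes 14 were higher (median -0.02). Npc1, the lysosomal cholesterol transporter, stood at 14.9, 13.5 and 14.0 CPM under vehicle and 48.8, 134 and 26.3 CPM with RGFP109. The vehicle sums were level and all RGFP109 sums lay above them (log2FC 2.48, SE 1.04, unadjusted p = 0.0403). Ctsl, a lysosomal protease, had a batch 2 RGFP109 sum of 10577 CPM, against 524 and 962 CPM in batches 1 and 3 and 518 to 819 CPM under vehicle. Cell 9 held 92.6% of those batch 2 counts, and the log2FC of Ctsl went from 1.90 to 0.32 without it.

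Neurotrophin genes and receptors had 10 of 15 higher (median 0.89, and 0.33 without cell 9). The medians by batch were 0.04, 0 and 0.35, and the list median ran from 0.03 to 0.91 over the 18 alternative settings. Ntrk2, the receptor for BDNF, stood at 189, 47.8 and 97.5 CPM under vehicle and 178, 265 and 286 CPM with RGFP109, level in batch 1 and higher in the others (log2FC 1.24, SE 0.459, unadjusted p = 0.0233). Ntrk3, the receptor for NT-3, stood at 48.9, 12.9 and 52.8 CPM against 66.5, 153 and 84.1 CPM, and Sort1, a sorting receptor for BDNF, at 26.3, 21.3 and 21.3 CPM against 70.96, 29.0 and 48.7 CPM. Both were without overlap on the higher side, as were 3.15% of all genes, and were picked out after their values were seen. Bdnf itself had counts in 7 of 26 neurons in each group and stood at 22.7, 0 and 1.72 CPM against 1.39, 10.8 and 2.38 CPM, with no usable direction (log2FC 4.25, SE 4.21). Endogenous mouse Htt stood at 39.5, 17.3 and 45.6 CPM against 74.04, 84.7 and 39.5 CPM (log2FC 0.84, SE 0.624, unadjusted p = 0.209), with medians over cells of 24.9 CPM under vehicle and 16.9 CPM with RGFP109.

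Immediate early genes had 11 of 21 higher (median 0.12), and 10 of 21 without cell 9 (median -0.16). Egr1, a transcription factor induced by activity, was lower in every batch (248, 83.4 and 30.2 CPM against 51.9, 45.7 and 7.70 CPM; log2FC -1.79, SE 0.573, unadjusted p = 0.0115). Its median over cells was about 2 CPM in both groups, with counts in 16 and 20 of 26 neurons, and 1 vehicle neuron held 75.3% of the vehicle counts. Of 24 p53 targets and cell death genes, 16 were higher (median 0.29). Apaf1, the core of the apoptosome, was higher by a like amount in each batch, at 5.95, 40.4 and 7.58 CPM under vehicle and 33.4, 242 and 41.6 CPM with RGFP109 (edgeR log2FC 2.55, SE 0.825, unadjusted p = 0.0124). The groups of Apaf1 overlapped, and its median over cells was 0.315 CPM under vehicle and 5.19 CPM with RGFP109. In each group 1 neuron held a large part of its counts, 42.1% under vehicle and 30.3% with RGFP109. Of 23 genes of the unfolded protein and integrated stress response, 11 were higher (median -0.05). Atf4, a transcription factor of that response, stood at 157, 273 and 167 CPM against 138, 103 and 177 CPM (log2FC -0.55, SE 0.355).

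The medians of the antioxidant, interferon and microglia lists also changed sign without cell 9. The median of 30 antioxidant genes, 16 of them higher, was 0.15 with it and -0.24 without it. The median of 27 interferon genes, 17 of them higher, was 0.21 with it and -0.26 without it. The median of the 4 tested microglia markers was 0.44 with it and -0.65 without it. Nqo1, a quinone reductase, had 8.14, 1.24 and 1.06 CPM under vehicle and 3.66, 1119 and 5.89 CPM with RGFP109. The single high sum was 0.704 CPM without cell 9, and its log2FC went from 6.02 to 0.12. Gclc, the catalytic subunit of glutathione synthesis, was higher in each batch (21.6, 35.99 and 9.55 CPM against 57.7, 97.2 and 22.6 CPM; log2FC 1.39, SE 0.551, unadjusted p = 0.0315). It kept its direction in batch 2 without cell 9, at 67.2 CPM (log2FC 1.18, unadjusted p = 0.0798). Psmb10, an immunoproteasome subunit, was lower without overlap (22.4, 31.8 and 43.95 CPM against 2.27, 4.25 and 20.5 CPM; log2FC -2.38, SE 0.983).

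Markers of other cells differed between groups and between single cells. Astrocyte markers summed to 2411, 1446 and 883 CPM in the vehicle sums and 1824, 2617 and 1438 CPM in the RGFP109 sums. Single cells reached 8608 CPM under vehicle and 11452 CPM with the drug, and 1 vehicle and 3 RGFP109 neurons lay above 6057 CPM, the limit used for neurons rich in glial markers. Endothelial and mural markers summed to 1507, 217 and 151 CPM against 188, 96.0 and 79.5 CPM, with 1 vehicle neuron of batch 1 at 6557 CPM. Acta2, the smooth muscle actin, made up most of the vehicle sums (1500, 207 and 143 CPM under vehicle, 167, 2.93 and 51.4 CPM with RGFP109). Col1a2, a collagen gene of the same list, went the other way without overlap (1.18, 0 and 2.01 CPM against 17.6, 73.5 and 16.0 CPM; unadjusted p = 0.0283). Both were picked out after their values were seen. All 7 tested oligodendrocyte lineage markers were lower in the fit, 2 of them in all 3 batches (12.9% of all genes). Their medians by batch were 0.32, -1.88 and -0.48, and the 12 listed summed to 138, 385 and 144 CPM against 142, 58.6 and 87.4 CPM. Of 6 striatal interneuron markers 4 were higher (median 0.50), and the 13 listed summed to 28.2, 28.9 and 94.96 CPM against 13.4, 29.2 and 55.7 CPM. Of the 7 tested proliferation markers 6 were lower, and the 7 summed to 86.6, 90.7 and 72.6 CPM under vehicle and 53.4, 48.5 and 43.6 CPM with RGFP109. Without cell 9 the medians were -2.99 for proliferation, -2.78 for endothelial and mural and -1.15 for oligodendrocyte lineage markers. Their part in the results above was not tested.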

How the data were processed

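The authors deposited 1 table of raw counts of reads per gene, with 1 column per cell and no normalization. The submitters' processing notes name FastQC, Trimmomatic 0.36, STAR 2.5 and HTSeq 0.9.1, while no source used here gives the settings, annotation release or strand. Symbols and positions were taken from GENCODE M21 (GRCm38). PCR reads had no molecular identifiers. P-values rest on the scatter of the sums that remains once group and batch terms are fitted, and that scatter may be technical. Within each batch, counts of all cells with 1 group label were added up. The 12 sums of the 97Q and 25Q groups were fitted together with terms for group and batch in edgeR 4.0.16 (R 4.3.3; TMM, robust quasi-likelihood test, 6 residual degrees of freedom). Genes passed filterByExpr and had a count in at least 20% of the 104 cells. The contrasts were RGFP109 against vehicle in 97Q, the same in 25Q, and their difference. P-values were two-sided, with Benjamini-Hochberg adjustment over 15091 genes and a threshold of 0.05. SEs were derived from the log2FC and the F statistic.

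Batch pairs the sums: deviations of sums from their group means had a Pearson r across genes of 0.0969 to 0.299 for pairs from 1 batch and of at most 0.0347 for pairs from different batches, and the labels give the batch. The script was tested on simulated data.

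Named genes were the 8 higher and 8 lower genes of smallest p that moved one way in all 3 batches, with at least 10 CPM in the higher group and no single cell holding over 50% of its counts, then the 2 genes of smallest p of each list (1 for lists under 20 genes), and 12 genes always named. A few of the genes are not reported here. The members and lists were chosen with earlier results of these data known. Of 34 lists, 31 had at least 5 tested genes. Alternatives covered the batch term, scaling, filters, DESeq2 1.42.0, limma 3.58.1, thinning, and leaving out batches or cells, and those on cell 9 and on all 7 cells that stood apart were chosen after seeing the data.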

Additional observations from a re-analysis of the deposited data

Results flagged for a closer look

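For 6 named genes RGFP109 minus vehicle lay on opposite sides of 0 in 97Q and 25Q neurons in all 3 batches. The values are differences of the drug effects, 97Q minus 25Q, on the log2 scale from edgeR. Each has an unadjusted p and a Benjamini-Hochberg adjusted p of 0.998, so none passed. Kctd12 had 3.32 (unadjusted p = 0.000703, and 2.72 without cell 9, where its 97Q batch 2 difference turned), with 97Q differences of 2.33, 1.48 and 1.66 and 25Q differences of -2.20, -1.15 and -0.59 by batch. Arhgef3 had 3.16 (unadjusted p = 0.00579), with 97Q differences of 1.14, 2.85 and 2.56 against -0.04, -0.91 and -1.30 in 25Q. Zdhhc2 had -1.83 (unadjusted p = 0.0118), with -2.55, -1.24 and -0.67 against 0.62, 0.05 and 0.51. Hmgcs1 had -1.76 (unadjusted p = 0.0331), with -1.03, -2.98 and -0.08 against 0.01, 0.80 and 1.08. Gabra5 had -2.89 (unadjusted p = 0.0695), and Abat, which breaks down GABA, had 0.72 (unadjusted p = 0.0625). Without cell 9 these were 3.26 for Arhgef3, -1.79 for Zdhhc2, -1.73 for Hmgcs1, -2.93 for Gabra5 and 0.78 for Abat. Over all genes, 393 of 15091 (2.60%) had an unadjusted interaction p under 0.05. Kctd12, Arhgef3 and Zdhhc2 were named because they moved one way in all 3 batches of 97Q neurons, so that part was fixed by the choice. The share of all genes on opposite sides in all 3 batches is not given here. Some 25Q differences were close to 0, at 0.01 for Hmgcs1, -0.04 for Arhgef3 and 0.05 for Zdhhc2 in 1 batch each.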

How the results depend on the processing

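Over 18 alternative settings, the count of genes past the adjusted threshold moved from 0 only with DESeq2, at 110 genes in 97Q and 69 for the difference between 97Q and 25Q (63 and 53 without cell 9), and with no filter on low counts, at 1 gene. Leaving out each batch in turn gave 0 to 0 genes, with 206, 723 and 384 at an unadjusted p under 0.05 without batches 1, 2 and 3. With no replicate block, that is without the batch term, the pairing by batch was given up and 0 genes passed in either comparison, with 243 and 285 at an unadjusted p under 0.05. Scaling by total counts split the 376 genes at an unadjusted p under 0.05 into 179 higher and 197 lower. Of 65 named genes, 53 kept their direction in all settings that gave a value. By means over cells of log2(CPM + 1) in limma, the direction turned for Chd5 (-0.048), Syp (-0.37), Ifitm3 (-0.13), Gad1 (-0.16), Gad2 (-0.55), Htt (-0.040), Bdnf (-0.27) and Ppp1r1b (0.23). Without batch 2 it turned for mt-Nd6 (-0.026), Hdac2 (0.023), Bdnf (-1.61) and Ppp1r1b (1.08). Without the 7 cells that stand apart it turned for Nqo1 (-0.33), Ifitm3 (-0.69), Ppp1r1b (0.17) and Cdkn1a (-0.52), and without glial-rich neurons for Ifitm3 (-0.49) and Ppp1r1b (0.020). Gad1 was -0.35 without cell 10, Bdnf -0.71 with no replicate block and Ppp1r1b 0.85 with limma-voom. The cause was not tested. The 3 to 4 cells behind each batch 2 sum and a coefficient of variation of 0.928 limit what could be detected.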
